A study of Mus musculus with 16 samples.

Results

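Astrocytes are the glial cells that clear neurotransmitter, buffer ions and supply neurons, and their transcripts can be measured in cultures prepared for neurons because such cultures keep some glia. The genes described here are 32 genes known for their expression in mouse astrocytes, taken by their symbols from a table of 45724 genes. The water channel gene Aqp4, also typical of astrocytes, is not among them. In roles they cover transporters and enzymes for neurotransmitters and amino acids, membrane proteins for ions, pH and cell volume, gap junction proteins, cytoskeletal and other classical markers, receptors and a transcription factor, proteins of lipid transport, metallothioneins and secreted proteins.

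RNA came from primary neuron cultures made from whole-brain tissue of C57BL/6 mice at postnatal day 0, with no other allele named. Cultures had received NP24, Tβ10 or Tβ4, peptides that the labels attribute to the subcommissural organ, or the vehicle DPBS (Dulbecco's phosphate-buffered saline) as the control, with 4 libraries in each group. The subcommissural organ is an ependymal gland near the cerebral aqueduct. Doses and exposure times are not given in the sources used here. The labels do not say whether the 4 libraries of a group are separate cultures, so each p measures the spread between these libraries, which may be technical. The comparisons ask whether any of the peptides went with different levels of astrocyte transcripts.

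Levels are normalized counts, the authors' reads per gene divided by 1 size factor per library. The libraries held 11642242 to 38254320 reads in genes, and 1 read was worth 0.536 to 1.71 normalized counts. The neuronal tubulin gene Tubb3 averaged 7597 ± 1359 normalized counts with NP24, 6733 ± 2001 with Tβ10, 5064 ± 1649 with Tβ4 and 6002 ± 140 in control (SD, n = 4 each). Mitochondrial ribosomal RNA made up 5.98% to 8.12% of reads with NP24, 4.76% to 9.53% with Tβ10, 8.25% to 24.3% with Tβ4 and 9.32% to 14.2% in control. Tβ4 library 2 and Tβ10 library 1 stood apart from the rest. Their median log2 value over 74 ribosomal protein genes was 8.24 and 8.34, against 8.62 to 9.41 in the other 14 libraries, and their nuclear RNA Malat1 stood at 357561 and 397545 normalized counts, against 168603 to 327024. The slope of a library's log2 deviation from the mean of all libraries on genomic span, over protein-coding genes, was 0.128 per doubling of span in Tβ4 library 2 and 0.0646 in Tβ10 library 1, followed by 0.0593 in NP24 library 4 and at most 0.0303 elsewhere. Results for many genes with Tβ4 are given with and without library 2. With Tβ10, calls are also given without library 1, while most differences of single genes are given only with it.

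A gene was tested where 4 or more of the compared libraries held 10 or more normalized counts, which 30 of the 32 genes did in every comparison. The gap junction gene Gjb6 and Itih3, which encodes a chain of a hyaluronan-binding protein complex, did not. Gjb6 was at 0 in all NP24 libraries and, apart from 17.1 normalized counts in Tβ4 library 1 and 5.62 in control library 2, did not pass 3.41 in any library. Itih3 ranged between 0 and 14.5 normalized counts.

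The GABA transporter gene Slc6a11 rose in NP24 and in Tβ10 cultures, the bicarbonate transporter gene Slc4a4 rose in NP24 cultures, and the metallothionein gene Mt1 fell in both. With limma on log2(normalized count + 1) and a Benjamini-Hochberg adjusted p under 0.05 over all genes tested, 2 of the 30 genes rose in NP24 cultures, where 1.16% of all 21774 genes did, and 1 fell, where 1.47% did (2.63% together). In Tβ10 cultures, where 0.633% of all 21960 genes were called, 1 rose, against 0.1% of all genes, and 1 fell, against 0.533%. In Tβ4 cultures none of the 30 genes passed, and 0% of all 22205 genes did. Without Tβ4 library 2, 12 of 30 rose and none fell, where 0.623% of all genes rose and 1.01% fell. That library was set apart on these data. It was the lowest Tβ4 library for 19 of the 30 genes, so leaving it out raises their differences by construction. The median log2 difference of the 30 genes from control was 0.01 with NP24, 0.08 with Tβ10 and 0.33 with Tβ4, where the median of all genes was -0.00 in each. The 3 comparisons share the control libraries, so their values are given side by side and not as repeats of each other. In bulk RNA, a change in the number of astrocytes and a change in transcript per astrocyte cannot be told apart.

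**Figure D1:**
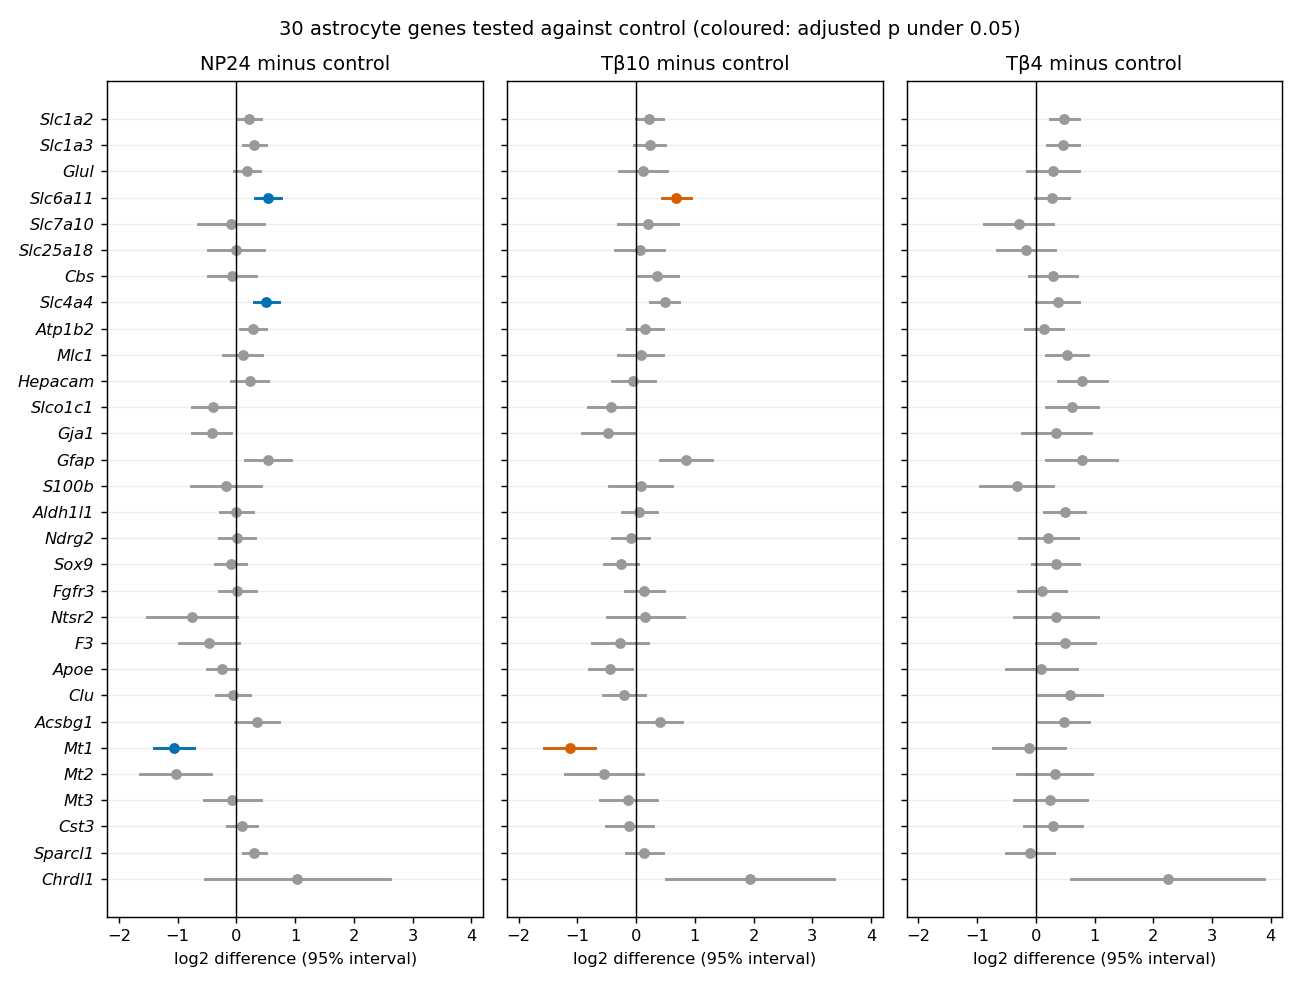
Log2 difference from control (x axis) of the 30 tested astrocyte genes (rows), for NP24, Tβ10 and Tβ4. Points are limma estimates and bars their 95% intervals, and colour marks an adjusted p under 0.05: Slc6a11, Slc4a4 and Mt1 with NP24, Slc6a11 and Mt1 with Tβ10, and none with Tβ4, where 25 of 30 points lie above 0.

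Among the 7 genes for neurotransmitters and amino acids, 1 rose with NP24 (1.16% of all genes) and the same gene rose with Tβ10 (0.1%). None passed with Tβ4 (0%). With so few genes, such counts, here and for the groups below, are no result about a group. Slc6a11 encodes a GABA transporter that astrocytes use to take up GABA outside synapses. It lies on chromosome 6 (GRCm38, chr6:114131241-114249952, plus strand) and no other annotated gene overlaps its exons. Slc6a11 stood at 2217, 1874, 2001 and 2151 normalized counts in NP24 libraries 1 to 4, at 2169, 2070, 2508 and 2389 in Tβ10 libraries, at 1423, 1914, 1812 and 1739 in Tβ4 libraries and at 1177, 1438, 1613 and 1469 in control. Every NP24 and every Tβ10 library lay above every control library, while Tβ4 library 1 lay within the control range. The log2 difference from control was 0.54 ± 0.11 with NP24 (SE, adjusted p = 0.00754, a 1.45-fold higher level) and 0.69 ± 0.12 with Tβ10 (adjusted p = 0.00783, 1.61-fold). With Tβ4 it was 0.27 ± 0.14, with an interval of -0.02 to 0.57 (adjusted p = 0.750). Without control library 1, which was the lowest, Slc6a11 missed the threshold with both peptides, at 0.45 (adjusted p = 0.0529) with NP24 and 0.60 (adjusted p = 0.0664) with Tβ10. It also missed with Tβ10 when Tβ10 library 3 was left out (0.64, adjusted p = 0.0605).

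The glutamate transporter genes Slc1a2 and Slc1a3, which encode the main carriers that take glutamate up into astrocytes, were abundant in every library. Slc1a2 stood at 2690, 2863, 3258 and 3116 normalized counts with NP24, 2679, 2975, 3188 and 3114 with Tβ10, 3703, 3581, 3706 and 3303 with Tβ4 and 2259, 2527, 2704 and 2738 in control. All 4 Tβ4 libraries lay above every library of the other 3 groups, while NP24 and Tβ10 overlapped with control. The difference of Slc1a2 from control was 0.49 ± 0.11 with Tβ4 (log2, SE), 0.22 ± 0.09 with NP24 and 0.23 ± 0.11 with Tβ10, with adjusted p of 0.442, 0.227 and 0.447. Tβ4 library 2 did not stand apart for this gene. Without it the difference was 0.48 and passed (adjusted p = 0.0243), in a fit that called 354 of all genes.

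Slc1a3 stood at 4780, 4221, 4739 and 4383 normalized counts with NP24, 3426, 5063, 4567 and 4315 with Tβ10, 5334, 4560, 5179 and 5264 with Tβ4 and 3302, 3305, 4166 and 3973 in control. Its NP24 and Tβ4 libraries did not overlap with control, and its Tβ10 libraries did through library 1. The log2 difference was 0.30 ± 0.09 with NP24 (adjusted p = 0.0888), 0.23 ± 0.13 with Tβ10 (adjusted p = 0.525) and 0.47 ± 0.13 with Tβ4 (adjusted p = 0.458, and 0.0205 without Tβ4 library 2). With NP24, Slc1a3 passed under DESeq2 (adjusted p = 0.0488) and under library-size scaling (adjusted p = 0.0420). Glul, the enzyme that turns glutamate into glutamine inside astrocytes, averaged 1230 ± 51.8 normalized counts with NP24, 1237 ± 413 with Tβ10, 1386 ± 404 with Tβ4 and 1089 ± 126 in control. Its wide spread in 2 groups came from single libraries: Tβ10 library 1 held 679 and Tβ4 library 2 held 800, against 1258 to 1672 and 1434 to 1679 in the other 3 of each group.

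The remaining genes of amino acid handling did not pass in any comparison with control. Slc7a10, a carrier of small neutral amino acids, had log2 differences of -0.09 with NP24, 0.20 with Tβ10 and -0.29 with Tβ4. Slc25a18, a mitochondrial glutamate carrier, had -0.01, 0.06 and -0.17 in the same order of peptides. Cbs, an enzyme that makes cystathionine from homocysteine, had -0.08, 0.36 and 0.29. The 4 Tβ10 libraries of Cbs, at 236 to 269 normalized counts, lay above all control libraries, at 178 to 220.

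**Figure D2:**
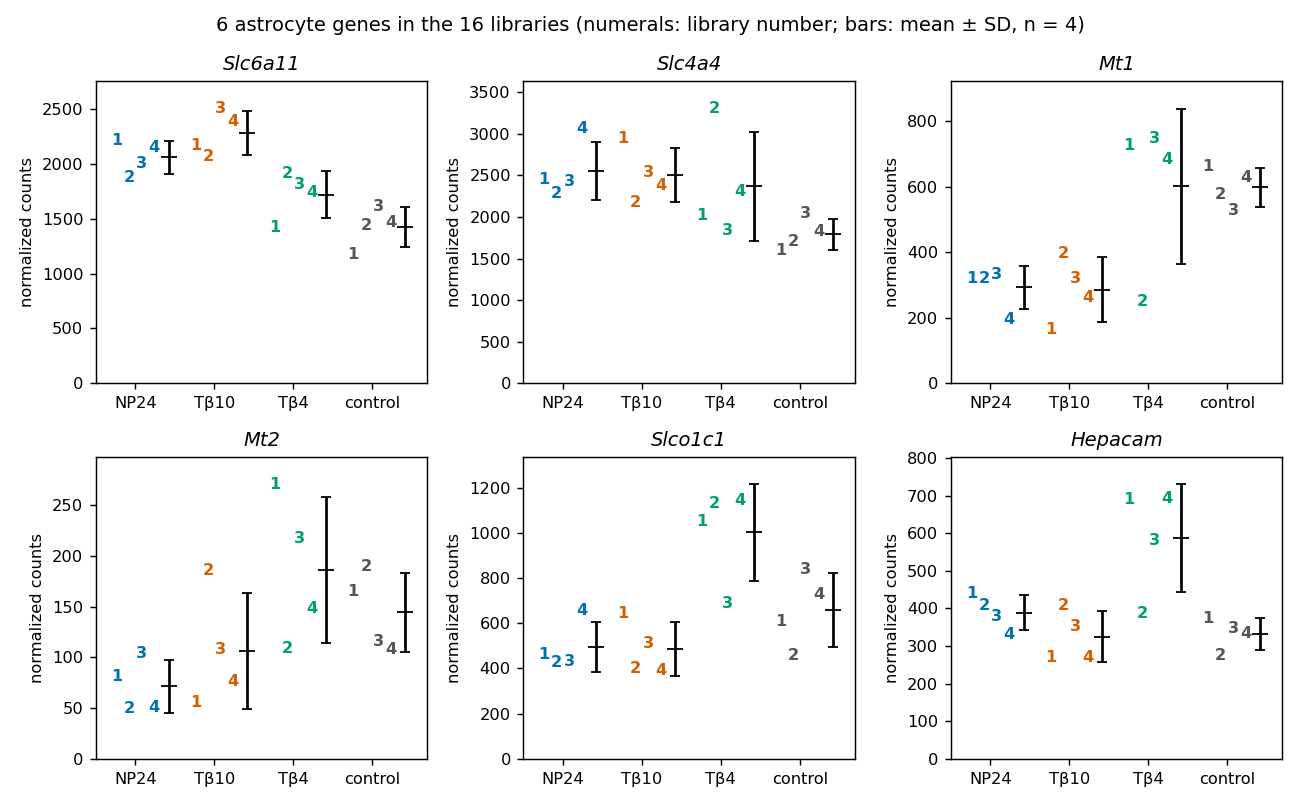
Normalized counts (y axis, from 0) of Slc6a11, Slc4a4, Mt1, Mt2, Slco1c1 and Hepacam in the NP24, Tβ10, Tβ4 and control libraries; numerals give the library number and black bars the mean ± SD (n = 4). NP24 and Tβ10 libraries lie above control for Slc6a11 and Slc4a4 and below it for Mt1, while Tβ4 library 2 lies far below the other Tβ4 libraries for Mt1 and Hepacam.

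Of the 5 genes for ions, pH, volume and transport at the membrane, 1 rose with NP24, where 1.16% of all genes did. None passed with Tβ10 (0.633% of all genes called) or Tβ4 (0%). Slc4a4 encodes a sodium bicarbonate cotransporter that sets pH in and around astrocytes, and lies at chr5:88886818-89239653 on the plus strand (GRCm38). It stood at 2447, 2285, 2429 and 3066 normalized counts with NP24, 2948, 2179, 2530 and 2377 with Tβ10, 2018, 3305, 1835 and 2309 with Tβ4 and 1597, 1701, 2040 and 1820 in control. NP24 and Tβ10 libraries all lay above the control libraries. The log2 difference was 0.51 ± 0.11 with NP24 (adjusted p = 0.0114, 1.43-fold) and 0.48 ± 0.12 with Tβ10, which missed the threshold (adjusted p = 0.0771, 1.40-fold). With Tβ4 it was 0.37 ± 0.17 (adjusted p = 0.703), and 0.20 without Tβ4 library 2, which was the highest of all 16 libraries for this gene. The NP24 call was lost without control library 1 (0.46, adjusted p = 0.0705) and without control library 2 (0.49, adjusted p = 0.0502), and in a fit of all 16 libraries (adjusted p = 0.148). Slc4a4 has the longest genomic span of the 32 genes, and its highest library in each of the 3 peptide groups was the one with the steepest span slope of that group, NP24 library 4, Tβ10 library 1 and Tβ4 library 2. With the span slope as a covariate, an alternative chosen after seeing the data, Slc4a4 passed with NP24 (0.40, adjusted p = 0.0106) and did not with Tβ10 (0.36, adjusted p = 0.0578). With Tβ10, Slc4a4 passed under DESeq2 (0.49, adjusted p = 0.0124), under library-size scaling (0.58, adjusted p = 0.0385) and without Tβ10 library 2 (0.55, adjusted p = 0.0166).

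Mlc1 and Hepacam encode membrane partners in astrocyte endfeet and junctions that act in volume control, and their defects cause a leukodystrophy in humans. Hepacam (chr9:37367351-37386575, plus strand) stood at 439, 407, 379 and 330 normalized counts with NP24, 270, 407, 353 and 269 with Tβ10, 690, 387, 580 and 691 with Tβ4 and 373, 275, 347 and 332 in control. The 4 Tβ4 libraries lay above control, library 2 by the smallest margin. The log2 difference was 0.79 ± 0.19 with Tβ4 (adjusted p = 0.442), 0.98 without library 2 (adjusted p = 0.00429), 0.23 ± 0.15 with NP24 (adjusted p = 0.474) and -0.05 ± 0.17 with Tβ10 (adjusted p = 0.950). Mlc1 averaged 405 ± 69.7 normalized counts with NP24, 403 ± 96.5 with Tβ10, 542 ± 78.7 with Tβ4 and 377 ± 65.0 in control, and its Tβ4 difference was 0.53 ± 0.17 (adjusted p = 0.487, and 0.0463 without Tβ4 library 2).

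Slco1c1, a carrier of thyroid hormone, stood at 463, 427, 431 and 658 normalized counts with NP24, 644, 399, 513 and 391 with Tβ10, 1050, 1128, 687 and 1142 with Tβ4 and 610, 457, 837 and 728 in control. The control libraries lay between, overlapping with all 3 peptide groups. The differences from control were -0.40 ± 0.17 with NP24, -0.43 ± 0.19 with Tβ10 and 0.61 ± 0.20 with Tβ4 (log2, SE), with adjusted p of 0.228, 0.394 and 0.509. With the span slope as a covariate Slco1c1 passed with NP24 (-0.55, adjusted p = 0.0446). Atp1b2, a beta subunit of the sodium pump, had 0.29 ± 0.11, 0.16 ± 0.15 and 0.14 ± 0.15 in the same order, and did not pass, and its Tβ4 difference was 0.25 without Tβ4 library 2.

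Among the gap junction genes only Gja1 was measurable, at 379 ± 36.8 normalized counts with NP24, 376 ± 125 with Tβ10, 688 ± 251 with Tβ4 and 517 ± 125 in control. It encodes the main connexin of astrocytes. The differences from control were -0.42 ± 0.16, -0.48 ± 0.21 and 0.35 ± 0.27 (log2, SE) for the 3 peptides in that order, with adjusted p of 0.168, 0.389 and 0.899. Without Tβ4 library 2 the Tβ4 difference of Gja1 was 0.66 (adjusted p = 0.0555).

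None of the 4 classical markers passed against control with limma over all 4 libraries of each group, though Gfap did with Tβ10 in some other fits. Of all genes, 2.63% were called with NP24, 0.633% with Tβ10 and 0% with Tβ4. Gfap, the intermediate filament of astrocytes, stood at 533, 520, 401 and 506 normalized counts with NP24, 436, 670, 637 and 713 with Tβ10, 741, 325, 606 and 761 with Tβ4 and 248, 260, 387 and 504 in control. The highest control library was 2.03 times the lowest, and each peptide group overlapped with them. The log2 difference was 0.54 ± 0.19 with NP24 (adjusted p = 0.129), 0.85 ± 0.21 with Tβ10 (adjusted p = 0.0789) and 0.78 ± 0.28 with Tβ4 (adjusted p = 0.577). With every library kept, Gfap passed with Tβ10 under DESeq2 (0.81, adjusted p = 0.0169), with a replicate block (0.85, adjusted p = 0.0288) and with the span slope as a covariate (0.90, adjusted p = 0.0274). Gfap also passed in limma when a single library was left out: without Tβ10 library 1 (1.00, adjusted p = 0.0144) or without control library 4 (1.04, adjusted p = 0.0374) for Tβ10, without control library 4 for NP24 (0.73, adjusted p = 0.0359), and without Tβ4 library 2 for Tβ4 (1.06, adjusted p = 0.0172).

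Aldh1l1, a folate enzyme used as a general astrocyte marker, stood at 480, 634, 492 and 472 normalized counts with NP24, 444, 550, 530 and 641 with Tβ10, 883, 540, 742 and 785 with Tβ4 and 434, 544, 541 and 556 in control. Tβ4 libraries 1, 3 and 4 lay above every other library, and Tβ4 library 2 within the control range. The differences were -0.00 ± 0.14, 0.06 ± 0.14 and 0.49 ± 0.16 (log2, SE; adjusted p of 0.998, 0.921 and 0.509) for NP24, Tβ10 and Tβ4. Reads of Aldh1l1 may in part belong to an antisense gene that covers 11.05% of its exon bases, and the same holds for Slc7a10 (17.9%) and Fgfr3 (13.9%). The calcium-binding protein S100b had differences of -0.18, 0.08 and -0.32, and Ndrg2, a protein of astrocyte processes, 0.01, -0.09 and 0.21, and none of them passed. Without Tβ4 library 2 the Tβ4 difference of Ndrg2 was 0.51 (adjusted p = 0.0466).

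In the group of receptors and the transcription factor, no gene passed against control. Sox9, which specifies the astrocyte lineage, averaged 951 ± 172 normalized counts with NP24, 849 ± 161 with Tβ10, 1313 ± 358 with Tβ4 and 1009 ± 87.0 in control. Its Tβ4 difference was 0.34 ± 0.19 (adjusted p = 0.801) and without Tβ4 library 2 it was 0.54 (adjusted p = 0.0268). Ntsr2, a neurotensin receptor, averaged 34.2 ± 9.35 normalized counts with NP24, 64.7 ± 15.6 with Tβ10, 75.4 ± 23.2 with Tβ4 and 58.3 ± 16.1 in control. F3, the tissue factor that starts coagulation, averaged 97.2 ± 25.6, 110 ± 19.5, 191 ± 49.5 and 132 ± 18.6 normalized counts in NP24, Tβ10, Tβ4 and control libraries. Fgfr3, a fibroblast growth factor receptor of glia, lay within 0.14 of control on the log2 scale with each peptide, with intervals no wider than -0.31 to 0.51.

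The lipid carriers of astrocytes, Apoe and Clu, and the acyl-CoA synthetase Acsbg1 likewise did not pass. Apoe stood at 1661, 1525, 1294 and 1052 normalized counts with NP24, 728, 1496, 1351 and 1366 with Tβ10, 2550, 776, 2070 and 2168 with Tβ4 and 1755, 1490, 1548 and 1676 in control. Tβ4 libraries 1, 3 and 4 were the highest of all 16, and Tβ10 library 1 and Tβ4 library 2 the lowest. The log2 difference of Apoe with Tβ4 was 0.10 ± 0.28 (adjusted p = 0.980) over 4 libraries and 0.48 (adjusted p = 0.0317) without library 2. For Clu the difference was 0.58 ± 0.26 (adjusted p = 0.698) and 0.90 without library 2 (adjusted p = 0.00436). Acsbg1 had differences of 0.35 ± 0.18 with NP24, 0.40 ± 0.18 with Tβ10 and 0.48 ± 0.20 with Tβ4, with adjusted p of 0.339, 0.413 and 0.670.

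Metallothioneins are small cysteine-rich proteins that bind zinc and copper, and transcription of Mt1 and Mt2 is known to respond to metals through a zinc-sensing factor that binds metal response elements. The 3 genes lie side by side on chromosome 8 in the same direction (GRCm38, Mt3 at chr8:94152607-94154146, Mt2 at chr8:94172664-94173568 and Mt1 at chr8:94179082-94180327, plus strand). Windows from RefSeq (GRCm38.p6) run from 250 bases before to 50 bases after each RefSeq gene start. They are shown because 1 of the 3 genes fell and its neighbours can be set beside it. These starts are not always the GENCODE starts given above. Capitals mark matches, on either strand, of TGCACNC or TGCGCNC, the core of the metal response element.
Mt1, chr8:94178839-94179138, plus strand: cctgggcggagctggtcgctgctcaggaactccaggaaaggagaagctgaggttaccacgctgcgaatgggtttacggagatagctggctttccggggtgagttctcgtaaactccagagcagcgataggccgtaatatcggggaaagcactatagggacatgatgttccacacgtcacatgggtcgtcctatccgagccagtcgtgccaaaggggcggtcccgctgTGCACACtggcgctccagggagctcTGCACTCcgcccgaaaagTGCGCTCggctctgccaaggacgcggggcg
Mt2, chr8:94172368-94172667, plus strand: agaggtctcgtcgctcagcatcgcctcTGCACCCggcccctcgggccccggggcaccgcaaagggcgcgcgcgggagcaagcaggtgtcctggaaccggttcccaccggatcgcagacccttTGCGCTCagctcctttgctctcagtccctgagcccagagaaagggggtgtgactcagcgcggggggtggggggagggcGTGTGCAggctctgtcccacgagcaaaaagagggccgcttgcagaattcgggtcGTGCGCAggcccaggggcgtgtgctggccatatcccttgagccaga
Mt3, chr8:94152357-94152656, plus strand: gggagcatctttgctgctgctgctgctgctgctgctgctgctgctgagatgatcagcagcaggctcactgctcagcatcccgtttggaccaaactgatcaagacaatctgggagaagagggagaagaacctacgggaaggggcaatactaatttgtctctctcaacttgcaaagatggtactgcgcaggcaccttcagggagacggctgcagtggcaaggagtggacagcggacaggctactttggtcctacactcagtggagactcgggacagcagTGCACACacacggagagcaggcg
The Mt1 window holds 3 matches, the Mt2 window 4 and the Mt3 window 1. Counted from the RefSeq start, they begin at -23, 2 and 20 in Mt1. In Mt2 they begin at -223, -128, -50 and 4, and in Mt3 at 27. Those with a positive position lie after the annotated start used. Whether that start is the main start of transcription was not checked, so they may still lie upstream of a later start. The windows therefore need not cover the same part of each promoter, and their match counts may not be comparable. Of 32851 promoter windows of the same length in the genome, 25.7% hold at least 1 match, 1.97% at least 3 and 0.517% at least 4. RefSeq windows matched 27 of the 32 genes, with 33 windows in all, and no window of another member holds 3 or more.

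Mt1 stood at 321, 321, 332 and 196 normalized counts with NP24, 163, 397, 321 and 263 with Tβ10, 727, 249, 748 and 683 with Tβ4 and 660, 577, 526 and 629 in control. All NP24 and all Tβ10 libraries lay below every control library. Tβ4 libraries 1, 3 and 4 lay above every control library, and Tβ4 library 2 lay below them all. Mt1 fell by 1.06 ± 0.16 on the log2 scale with NP24 (SE, adjusted p = 0.00125, 2.08-fold) and by 1.13 ± 0.21 with Tβ10 (adjusted p = 0.0137, 2.19-fold), and with Tβ4 the difference was -0.11 ± 0.29 (adjusted p = 0.974). The NP24 call held without each of the 8 libraries in turn, with adjusted p no higher than 0.0191. The Tβ10 call was lost without control library 1, 2 or 4 or Tβ10 library 4 (adjusted p of 0.109, 0.0590, 0.0779 and 0.0710), while the difference stayed between -1.15 and -0.88 in those fits and without Tβ10 library 1. In a fit of all 16 libraries, which shares 1 estimate of the spread, Mt1 passed with neither NP24 (adjusted p = 0.114) nor Tβ10 (adjusted p = 0.113).

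Mt2 stood at 81.5, 50.1, 104 and 50.7 normalized counts with NP24, 55.2, 185, 108 and 76.7 with Tβ10, 271, 109, 217 and 148 with Tβ4 and 165, 189, 115 and 108 in control. The NP24 libraries lay below control, library 3 only just, and the Tβ10 libraries overlapped with it. The log2 difference was -1.03 ± 0.29 with NP24, which missed the threshold in limma (adjusted p = 0.0574) and passed under DESeq2 (adjusted p = 0.0193), -0.54 ± 0.32 with Tβ10 (adjusted p = 0.543) and 0.32 ± 0.30 with Tβ4 (adjusted p = 0.920), or 0.55 without Tβ4 library 2 (adjusted p = 0.352). Values of Mt2 are uncertain, since the antisense gene Gm45774 covers 73.5% of its exon bases and took nearly the same values, 65.1 ± 20.9 with NP24, 99.5 ± 50.6 with Tβ10, 157 ± 49.3 with Tβ4 and 133 ± 25.8 normalized counts in control. Mt1 and Mt2 are also alike in sequence, so reads may be shared between them. Mt3, the brain metallothionein, stood at 183, 166, 122 and 111 normalized counts with NP24, 101, 163, 144 and 145 with Tβ10, 240, 104, 241 and 163 with Tβ4 and 111, 141, 153 and 206 in control. All groups of Mt3 overlapped, and its differences from control were -0.07 ± 0.24, -0.13 ± 0.23 and 0.25 ± 0.29, the last being 0.50 without Tβ4 library 2 (adjusted p = 0.359).

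Metallothionein genes are known to respond to zinc and to glucocorticoids, and a list of 11 genes with such responses was set beside them. None of the 11 passed in any comparison. Of all genes, 2.63% were called with NP24, 0.633% with Tβ10 and 0% with Tβ4 against control. Between peptides the shares were 2.09% (NP24 and Tβ4), 1.35% (Tβ10 and Tβ4) and 0% (NP24 and Tβ10). A count of 0 in 11 is near these shares and is no result about the list. The median log2 difference of the 11 genes from control was 0.08 with NP24, -0.00 with Tβ10 and 0.05 with Tβ4. The zinc exporter gene Slc30a1, a target of the zinc-sensing factor, averaged 371 ± 43.4 normalized counts with NP24, 314 ± 79.7 with Tβ10, 325 ± 99.5 with Tβ4 and 311 ± 56.3 in control. The glucocorticoid target Fkbp5 averaged 1009 ± 85.1, 923 ± 135, 919 ± 102 and 823 ± 35.5 normalized counts in the same order. Both genes were named after their values were seen, and genes of the list went either way. The smallest p of the list was that of Sgk1 with NP24 (0.37 ± 0.12, log2, SE). With Tβ10 it was that of Per1 (-0.51 ± 0.15), while Sgk1 was higher (0.37 ± 0.12). With Tβ4 it was that of Plin4 (-0.89 ± 0.45).

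The secreted proteins gave no call against control. Sparcl1, a matricellular protein that promotes synapse formation, stood at 2445, 2763, 2408 and 2212 normalized counts with NP24 and 2139, 1817, 2014 and 1974 in control, without overlap, and its difference of 0.30 ± 0.10 missed the threshold (adjusted p = 0.0882). Sparcl1 passed with NP24 under DESeq2 (adjusted p = 0.0357), library-size scaling (0.0384), the span slope as a covariate (0.0129) and without NP24 library 4 (0.0396). Its difference was 0.14 ± 0.15 with Tβ10 and -0.10 ± 0.19 with Tβ4, and 0.12 for Tβ4 without library 2. Cst3, a secreted protease inhibitor, had 0.10 ± 0.12 with NP24, -0.11 ± 0.19 with Tβ10 and 0.29 ± 0.23 with Tβ4, and 0.59 (adjusted p = 0.0128) in the last without library 2. Chrdl1, a secreted inhibitor of bone morphogenetic proteins, was near the detection limit in control, at 1.18, 28.1, 12.1 and 9.56 normalized counts, and averaged 22.0 ± 14.2 with NP24, 39.8 ± 19.5 with Tβ10 and 54.1 ± 39.5 with Tβ4. Its log2 differences of 1.04 ± 0.76, 1.94 ± 0.68 and 2.24 ± 0.77 depend on the added count of 1 and did not pass, with adjusted p of 0.528, 0.253 and 0.538.

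Across the 30 genes, counts above and below control were as follows for each peptide. With Tβ4, 25 of 30 had a positive difference from control, where 49.4% of all genes did, and 12 were higher and none lower at an unadjusted p under 0.05, against 4.04% and 3.02% of all genes. With NP24, 15 of 30 were positive (49.5% of all genes), with 7 higher and 4 lower at that p (8.26% and 8.78%). With Tβ10, 18 of 30 were positive (49.3%), with 7 higher and 4 lower (4.8% and 6.38%). Tβ4 and control libraries did not overlap for Slc1a2, Slc1a3 and Hepacam, all higher with Tβ4, where 2.26% of all genes did so, and none was lower without overlap (2.17%). For NP24, 5 genes were higher without overlap (Slc1a3, Glul, Slc6a11, Slc4a4 and Sparcl1, against 5.07% of all genes) and Mt1 and Mt2 lower (4.77%). For Tβ10, Slc6a11, Cbs and Slc4a4 were higher without overlap (2.96%) and Mt1 lower (3.95%). The count of 0 calls for Tβ4 is from limma; edgeR on the recovered reads also called 0 of all genes, and DESeq2 called 82, among them Slc1a2 and Hepacam. The authors' deposited table gives Slc1a2 (log2 fold change 0.48, adjusted p = 0.00921), Hepacam (0.82, adjusted p = 0.0180) and Slc1a3 (0.46, adjusted p = 0.0488) as changed with Tβ4. For Slc6a11 the authors' deposited table gives adjusted p of 0.00613 with NP24 and 7.52e-05 with Tβ10, and for Mt1 0.0295 and 0.0252. For Slc4a4 the authors' deposited table gives 0.0931 with NP24 and 0.163 with Tβ10, so it is not called there with either.

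**Figure D3:**
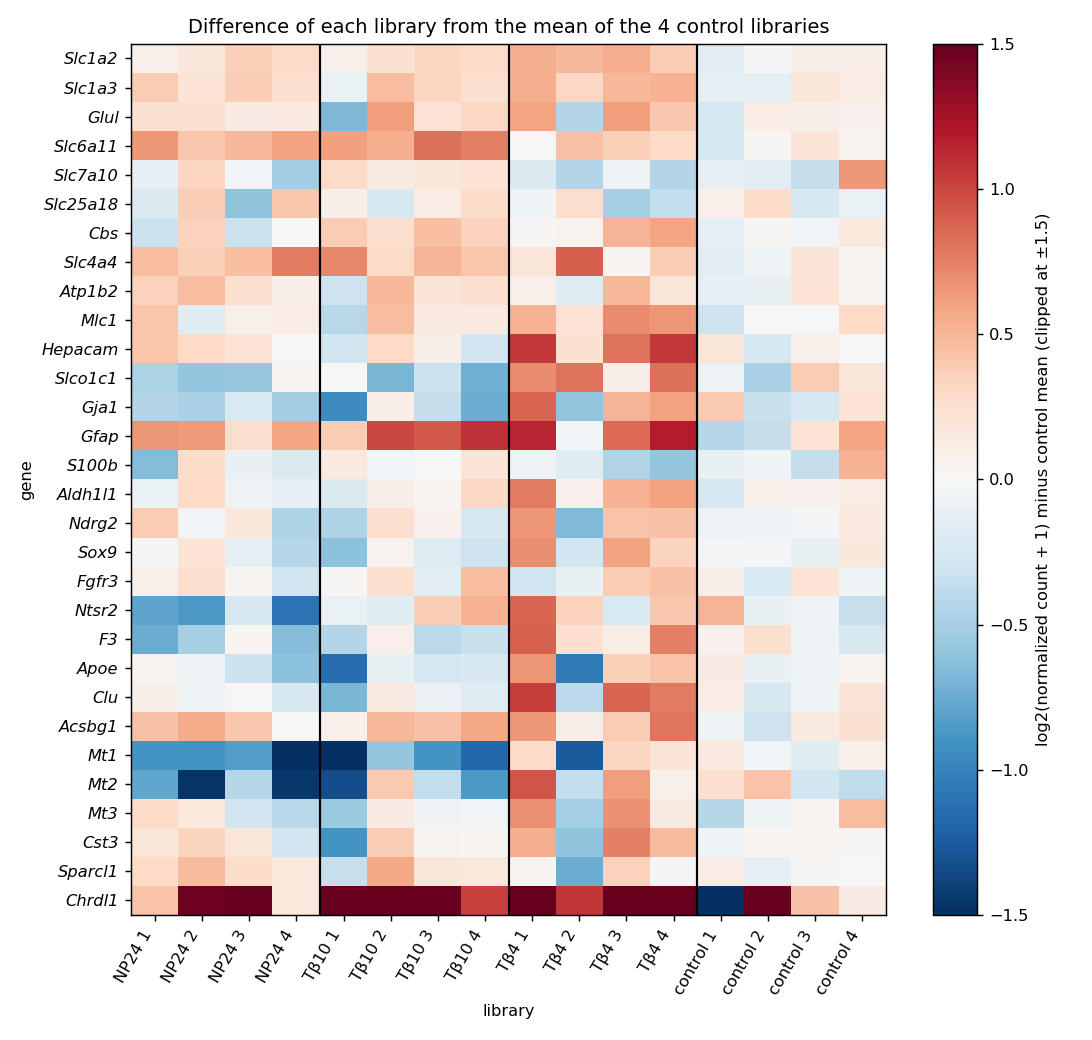
Difference of each library (columns) from the mean of the 4 control libraries for the 30 tested genes (rows), on the scale of log2(normalized count + 1), red above and blue below the control mean. Tβ4 libraries 1, 3 and 4 are red in most rows, with 26 of 30 genes above the control mean in each, while Tβ4 library 2 has 14 above and Tβ10 library 1 has 12.

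The median of the 30 genes relative to the control mean was 0.62, 0.50 and 0.43 in Tβ4 libraries 1, 3 and 4 (log2), and -0.08 in Tβ4 library 2. It was -0.25, 0.25, 0.11 and 0.20 in Tβ10 libraries 1 to 4, and 0.08, 0.24, 0.04 and -0.06 in NP24 libraries 1 to 4. The lowest median of each peptide group was in its library with the steepest span slope. Control went the other way, with its lowest median (-0.07) in library 1, at its lowest slope (-0.0507). Its highest median (0.10) was in library 4, at its highest slope (-0.0114). Tβ4 library 1, with the highest median of all 16 libraries, had a slope of 0.0303. Tβ4 library 2 was the lowest of its group for 19 of 30 genes, against 33.6% of all genes, Tβ10 library 1 for 19 of 30, against 27.9%, and NP24 library 4 for 17 of 30, against 28.7%. The part of the span slope, of Malat1 and of the ribosomal protein genes in these values was not tested.

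**Figure D4:**
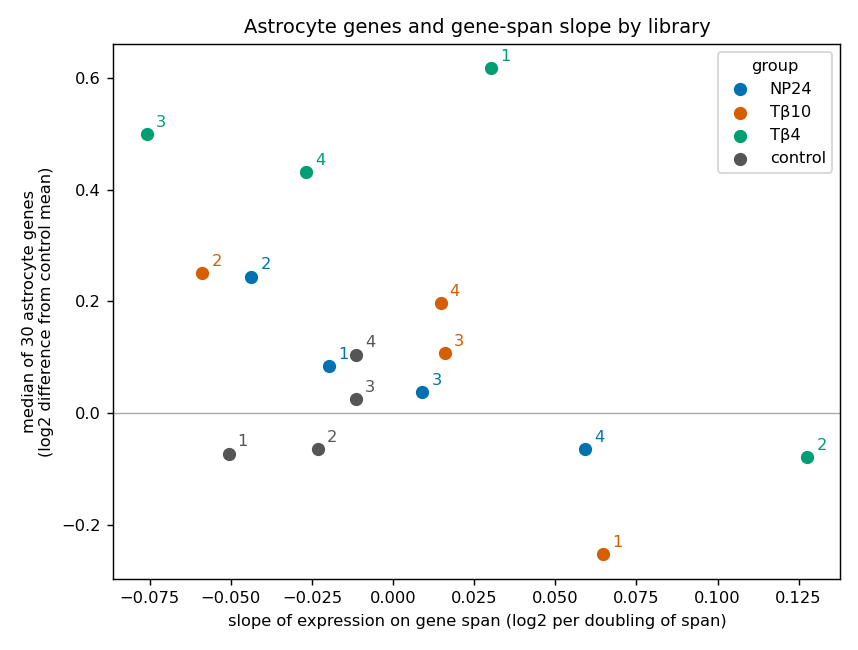
Median log2 difference of the 30 astrocyte genes from the control mean (y axis) against the slope of expression on gene span (x axis), 1 point per library, with its library number. The 3 libraries farthest to the right, Tβ4 2, Tβ10 1 and NP24 4, all lie below 0, and Tβ4 libraries 1, 3 and 4 lie highest. Control libraries 1 and 2, farther left, also lie below 0.

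Without Tβ4 library 2, limma called 354 genes between Tβ4 and control in all. Of the 30 astrocyte genes 12 then rose, where 0.623% of all genes did, and none fell, where 1.01% did. They were Slc1a2, Slc1a3, Glul, Mlc1, Hepacam, Gfap, Aldh1l1, Ndrg2, Sox9, Apoe, Clu and Cst3, with log2 differences of 0.48 (Slc1a2 and Apoe) to 1.06 (Gfap). Slc6a11 (0.22), Slc4a4 (0.20) and Mt1 (0.27) did not pass in that fit, with adjusted p of 0.439, 0.450 and 0.338. Leaving out any of the other 3 Tβ4 libraries or any control library gave 0 calls. Tβ4 library 2 was set apart on these data and was the lowest Tβ4 library for 19 of 30 genes. The 12 calls are therefore no independent evidence of a rise. Without Tβ10 library 1, Slc6a11, Gfap and Mt1 passed with Tβ10, that is 2 that rose (0.186% of all genes) and 1 that fell (0.988%).

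**Figure D5:**
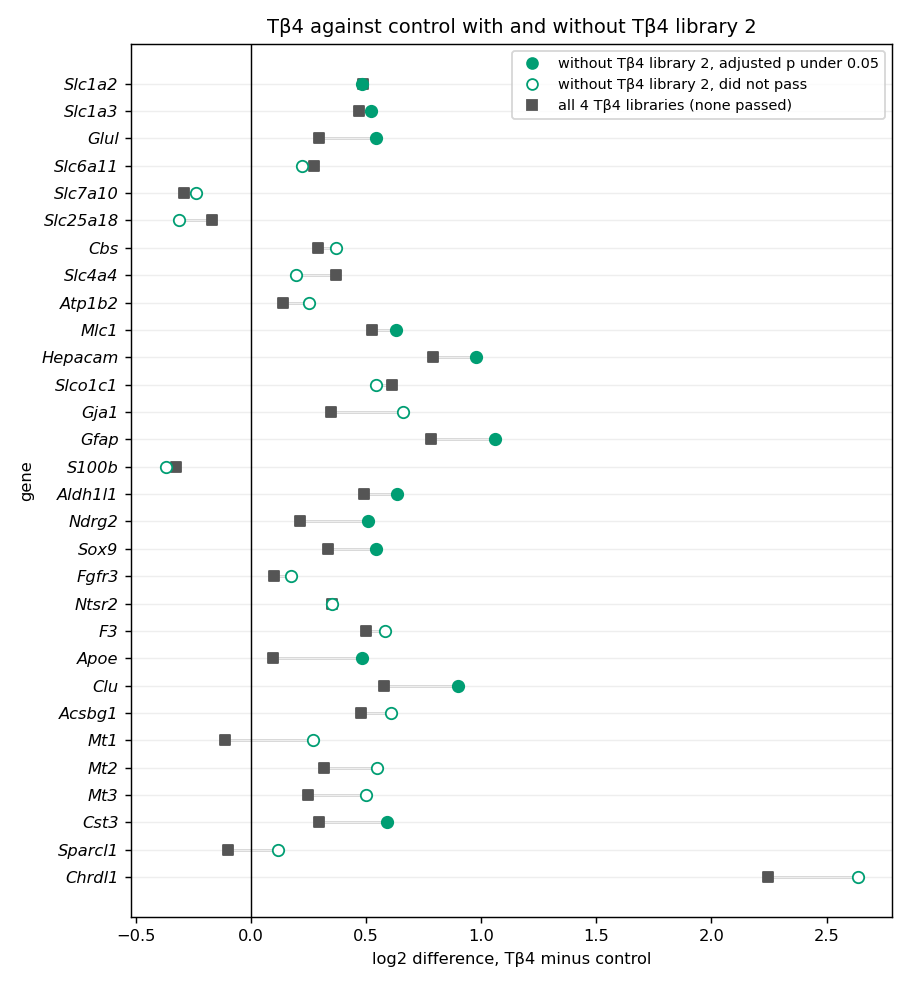
Log2 difference of Tβ4 from control (x axis) for the 30 genes, with all 4 Tβ4 libraries (squares, none of which passed) and without Tβ4 library 2 (circles, filled where the adjusted p is under 0.05). The filled circles are the 12 genes named in the text, and most circles lie to the right of their squares.

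The peptides were set against each other in a fit of all 16 libraries, with 24232 genes tested. Between NP24 and Tβ4, Slco1c1, F3 and Mt2 were lower with NP24 (2.09% of all genes were called, 1.65% lower and 0.442% higher). Between Tβ10 and Tβ4, Slco1c1 and Hepacam were lower with Tβ10 (1.35% of all genes were called, 1.05% lower and 0.297% higher). Between NP24 and Tβ10 none of the 30 passed, and 0% of all genes did.

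At an unadjusted p under 0.05, 2 of the 30 genes were higher with NP24 than with Tβ4 (5.99% of all genes) and 12 lower (9.05%). No gene was higher with NP24 without overlap between the libraries (2.89%), and 5 were lower without overlap, Slc1a2, Slco1c1, Ntsr2, F3 and Mt2 (4.65%). At the same p, 1 gene was higher with Tβ10 than with Tβ4 (5.21%) and 11 lower (7.19%). Without overlap, Slc6a11, Slc7a10 and S100b were higher with Tβ10 (2.57%) and Slc1a2, Slco1c1 and F3 lower (4.02%). A positive difference was found for 7 of 30 genes between NP24 and Tβ4 (49.3% of all genes) and for 10 of 30 between Tβ10 and Tβ4 (49.7%).

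Slco1c1 differed by -1.01 ± 0.21 between NP24 and Tβ4 (log2, SE, adjusted p = 0.0120, 2.01-fold) and by -1.04 ± 0.21 between Tβ10 and Tβ4 (adjusted p = 0.0113, 2.06-fold), and in neither comparison did the libraries overlap. The first call was lost without Tβ4 library 1 (-0.98, adjusted p = 0.0606), and the second without Tβ4 library 1 or 4 or Tβ10 library 4 (adjusted p of 0.0594, 0.0545 and 0.0532) and in a fit of 8 libraries (0.0624). F3 differed by -0.97 ± 0.23 between NP24 and Tβ4 (adjusted p = 0.0335), with 77.8, 92.7, 134 and 83.6 normalized counts in NP24 libraries and 244, 157, 142 and 222 in Tβ4 libraries. The groups did not overlap, and NP24 library 3 came closest to the Tβ4 libraries. The F3 call was lost without NP24 library 1, 2 or 4 or Tβ4 library 1 or 4, with adjusted p of 0.0714 to 0.158. It was also lost under library-size scaling (adjusted p = 0.0582), with the replicate block (0.0704) and in a fit of 8 libraries (0.129). Mt2 differed by -1.35 ± 0.35 between NP24 and Tβ4 (adjusted p = 0.0479) without overlap, and among the fits that left out 1 library it was kept in those without NP24 library 3 or Tβ4 library 2, with adjusted p up to 0.207 in the others. With every library kept, the Mt2 call was lost with a pseudocount of 0.1 (adjusted p = 0.0527), under library-size scaling (0.0533), with the replicate block (0.0763), without the filter on low values (0.0836) and in a fit of 8 libraries (0.101). Hepacam differed by -0.84 ± 0.19 between Tβ10 and Tβ4 (adjusted p = 0.0246), with overlap through Tβ4 library 2, and was lost without Tβ10 library 1 or 4 or Tβ4 library 1 or 4 (adjusted p of 0.0768 to 0.129). Hepacam was also lost with the replicate block (adjusted p = 0.0551), under library-size scaling (0.0587) and in a fit of 8 libraries (0.153).

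Without Tβ4 library 2, 10 of the 30 genes were lower with NP24 than with Tβ4 and none higher, where 3.18% and 2.63% of all genes were. They were Slco1c1, Hepacam, Gja1, Aldh1l1, Sox9, F3, Apoe, Clu, Mt1 and Mt2. In the same way 9 were lower with Tβ10 than with Tβ4 (2.5% of all genes) and Slc6a11 was higher (1.88%). NP24 and Tβ10 could not be told apart for any of the 30 genes at this number of libraries. The difference between them was -0.15 for Slc6a11, with a 95% interval of -0.40 to 0.10, 0.03 for Slc4a4 (-0.29 to 0.35) and 0.07 for Mt1 (-0.53 to 0.68). At an unadjusted p under 0.05, Ntsr2 (-0.91) and Cbs (-0.44) were lower with NP24 than with Tβ10, where 1.68% of all genes were, and no gene of the 30 was higher (0.755%). Ntsr2 was the 1 gene of the 30 whose NP24 libraries all lay below the Tβ10 libraries (1.35% of all genes), and 16 of 30 differences were positive (50%). edgeR and DESeq2 also called 0 genes between NP24 and Tβ10.

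The 30 genes differed widely in level. Per kilobase of exon, Apoe had the highest level in control, 756 normalized counts, followed by Cst3 (710), Sparcl1 (676), Mt1 (480) and Slc1a3 (432), while Ntsr2 (18.7) and Chrdl1 (1.88) had the lowest. With NP24 the order at the top was Sparcl1 (837), Cst3 (772), Apoe (647) and Slc1a3 (531), and Mt1 stood at 234. With Tβ4 it was Cst3 (923), Apoe (884), Sparcl1 (654) and Slc1a3 (596). Summed over the 32 genes, the level per kilobase was 5760 to 6854 in NP24 libraries, 4675 to 7553 in Tβ10 libraries, 5280 to 8883 in Tβ4 libraries and 6079 to 6630 in control. The spread within a group was narrow for Slc1a2, with a coefficient of variation of 8.52% with NP24, 7.52% with Tβ10, 5.30% with Tβ4 and 8.57% in control. It was wide for Apoe and Mt1 with Tβ4, at 40.8% and 39.4%, against 7.46% and 9.86% in control.

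A list of 30 other astrocyte genes, of which 28 were tested against control, gave 3 that rose and none that fell with NP24, 1 that rose with Tβ10 and none with Tβ4. Of all genes, 1.16% rose and 1.47% fell with NP24, 0.1% rose with Tβ10 and 0% were called with Tβ4. The median of that list was -0.11 with NP24, 0.05 with Tβ10 and 0.22 with Tβ4. Those with NP24 were Aqp4 (1.70 ± 0.25, adjusted p = 0.000934), the neurotrophin receptor gene Ntrk2 (0.34 ± 0.09, adjusted p = 0.0339) and the long noncoding RNA Pantr1 (0.37 ± 0.10, adjusted p = 0.0448), and the one with Tβ10 was Aqp4 (1.67 ± 0.30, adjusted p = 0.01005). Aqp4 stood at 384 ± 62.4 normalized counts with NP24, 391 ± 141 with Tβ10, 313 ± 93.3 with Tβ4 and 125 ± 49.8 in control.

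Genes known to rise in reactive astrocytes, 22 in the list, gave 3 that fell with NP24 of 14 tested (1.47% of all genes). With Tβ10, 1 of 14 fell (0.533%), and with Tβ4 none of 15 passed (0%). Their median log2 difference from control was -0.23 with NP24, -0.31 with Tβ10 and 0.31 with Tβ4. The list shares no gene with the astrocyte genes described above, so Gfap, also known to rise in reactive astrocytes, is not counted. Gfap went the other way with NP24 (0.54 ± 0.19) and Tβ10 (0.85 ± 0.21), and was 0.78 ± 0.28 with Tβ4. With limma as reported Gfap did not pass (adjusted p of 0.129, 0.0789 and 0.577), though with Tβ10 it passed in some other fits. Vimentin (Vim) fell by 0.60 ± 0.15, nestin (Nes) by 0.58 ± 0.13 and tenascin C (Tnc) by 0.44 ± 0.11 on the log2 scale with NP24, and Nes fell by 0.83 ± 0.14 with Tβ10. Vim and Nes are also expressed by progenitors. Against Tβ4, 5 of 16 were lower with NP24 (1.65% of all genes) and 5 of 16 with Tβ10 (1.05%). Among them the hyaluronan receptor gene Cd44 differed by -1.31 with NP24 and -1.15 with Tβ10, and Stat3, a transcription factor of cytokine signalling, by -0.77 with Tβ10. The acute-phase gene Lcn2, strongly induced in reactive astrocytes, averaged below 1 normalized count over the 16 libraries.

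Markers of other cells in these cultures moved in the same comparisons, and their part in the values of the 30 genes was not tested. Of all genes, 1.47% fell with NP24, 0.533% with Tβ10 and 0% with Tβ4. Fibroblast and meningeal markers, 8 tested of 10, gave 7 that fell with NP24, 5 that fell with Tβ10 and none that passed with Tβ4, where their median difference was 1.03. Their summed level per kilobase was 130 to 144 in NP24 libraries, 132 to 158 in Tβ10 libraries, 296 to 675 in Tβ4 libraries and 224 to 283 in control. Microglia and macrophage markers gave 4 that fell of 8 tested with NP24, 2 of 10 with Tβ10 and none of 12 with Tβ4, with summed levels of 519 to 562, 499 to 626 and 772 to 1413, against 766 to 1006 in control. Endothelial and pericyte markers summed to 22.3 to 41.0, 23.6 to 36.9 and 87.0 to 235, against 35.8 to 68.3 in control, and 1 of them, the pericyte gene Rgs5, fell with NP24 and with Tβ10. The endothelial gene Cldn5 averaged below 1 normalized count over the 16 libraries. Radial glia and progenitor markers, of which Slc1a3 is also a member here, summed to 2111 to 2242, 2009 to 2380 and 2572 to 2840, against 1785 to 2295 in control, and none of 10 passed against control. Their median log2 difference from control was -0.08 with NP24, 0.11 with Tβ10 and 0.34 with Tβ4. Oligodendrocyte lineage markers gave 2 that fell of 12 with NP24, Mbp and Olig2, and none with Tβ10 or Tβ4, with sums of 2172 to 2854, 2154 to 3113 and 2101 to 3334, against 2579 to 3279 in control. Ependymal and choroid plexus markers gave no call against control, with sums of 102 to 152, 138 to 147 and 134 to 349, against 151 to 253. Neuron markers gave no call of 17 against control, with sums of 16892 to 18329 with NP24, 14762 to 19390 with Tβ10, 12505 to 15396 with Tβ4 and 14102 to 15853 in control.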

How the data were processed

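RNA-seq of 16 libraries was analysed from the authors' deposited tables of normalized counts, which hold whole reads per gene divided by a size factor (a signal unit). Per the labels' protocols, RNA was extracted with an RNeasy Micro kit and libraries were made with a SMARTer Stranded Total RNA-Seq kit. The submitters' processing notes name FastQC, HISAT, featureCounts, DESeq2 and GRCm38; versions and the strand setting are not given in the sources used here. The authors' deposited tables also hold log2 fold changes, their standard errors, a test score, and p-values with adjusted p-values for each peptide against control. Dividing by the value of 1 read gave whole reads for 100% of nonzero values (tolerance 0.01).

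Values were tested as log2(normalized count + 1) with limma 3.58.1 (trend; R 4.3.3), for genes where 4 or more libraries held 10 or more normalized counts. P-values were adjusted by Benjamini-Hochberg over all genes, with a threshold of 0.05. Each peptide was fitted with control in 8 libraries, and peptides were compared in 1 fit of 16. Intervals are 95%. Data were simulated for NP24 and control, with 200 changed genes among 21128, drawn from genes with a mean of 50 or more normalized counts. Of genes changed by 1 log2 unit 78% were recovered, and of those changed by 2 98%, with 12 false calls. Smaller changes and the Tβ10 and Tβ4 libraries were not simulated. Recovered reads were also tested with edgeR 4.0.16 (quasi-likelihood) and with DESeq2 1.42.0; further alternatives were other scalings, pseudocounts, filters and fits, and leaving out each library. Positions are from GENCODE M21, where 45045 gene IDs matched with their version and 45596 without it.

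The members and gene lists were chosen with earlier results of these data known. Every member is accounted for; values in every library are given for members past the threshold against control, for the 2 with the smallest p where none passed, and for Gfap, Slc1a2, Slc1a3, Aldh1l1, Mt1, Mt2 and Mt3, with further members where a result turned on them.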

Additional observations from a re-analysis of the deposited data

Results flagged for a closer look

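In 7 of 120 groups of 4 libraries, 1 library stood far from the other 3 relative to the range of the group (Dixon's ratio past its 95% critical value, which chance gives in about 1 of 20 groups). Glul was low in control library 1, at 900.2 normalized counts against 1132 to 1168 in the other 3. Slco1c1 was high in NP24 library 4, at 658 against 427 to 463. Aldh1l1 was high in NP24 library 2, at 634 against 472 to 492, and low in control library 1, at 434 against 541 to 556. F3 was high in Tβ10 library 2, at 139 against 97.0 to 104. Mt1 was low in NP24 library 4, at 196 against 321 to 332, and in Tβ4 library 2, at 249 against 683 to 748.

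The peptides differed from each other in 5 tests with limma over 16 libraries. Between NP24 and Tβ4, where 2.09% of all genes were called, the log2 difference was -1.01 for Slco1c1, -0.97 for F3 and -1.35 for Mt2. Of 8 fits that each left out 1 library, 7 kept the call for Slco1c1, 3 for F3 and 2 for Mt2. Between Tβ10 and Tβ4, where 1.35% of all genes were called, the log2 difference was -0.84 for Hepacam and -1.04 for Slco1c1. The call was kept in 4 of 8 such fits for Hepacam and in 5 of 8 for Slco1c1.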

How the results depend on the processing

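No called value changed sign under any alternative. With limma as reported, 3, 2, 0, 3, 2 and 0 of the astrocyte genes were called, and 572, 139, 0, 507, 326 and 0 of all genes, for NP24, Tβ10 and Tβ4 against control, NP24 against Tβ4, Tβ10 against Tβ4 and NP24 against Tβ10. DESeq2 on the recovered reads called 6, 4, 2, 8 and 8 astrocyte genes in the first 5 comparisons and 1178, 432, 82, 1172 and 813 of all genes. With the span slope as a covariate, chosen after seeing the data, the counts were 5, 3, 0, 11 and 10 astrocyte genes and 1006, 566, 9, 1602 and 1188 of all genes. A fit of all 16 libraries for the comparisons with control called 1, 1 and 0 astrocyte genes and 120, 62 and 2 of all genes; fits of 8 libraries for the peptide pairs with Tβ4 called 1 and 0, and 109 and 77. With library-size scaling the median log2 difference of all genes from control was 0.05 with NP24, 0.09 with Tβ10 and -0.09 with Tβ4. It was 0.13 for NP24 against Tβ4, 0.18 for Tβ10 against Tβ4 and -0.04 for NP24 against Tβ10. This scaling gave 5 astrocyte genes for NP24 against control, 1 for NP24 against Tβ4, and 614 of all genes for Tβ10 against Tβ4. With it, 507 of all genes were higher and 256 lower for NP24 against control (253 and 319 as reported), 56 and 67 for Tβ10 (22 and 117), 363 and 269 for NP24 against Tβ4 (107 and 400) and 449 and 165 for Tβ10 against Tβ4 (72 and 254). Without the filter, 365 of all genes were called for NP24 against control and 184 for Tβ10 against Tβ4.

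Same-numbered libraries of 2 groups were not shown to be paired, since their deviations correlated at -0.302 to 0.113. A replicate block called 91 of all genes for Tβ10 and 2 for Tβ4 against control, 1 astrocyte gene for NP24 against Tβ4, and 1 astrocyte gene and 214 of all genes for Tβ10 against Tβ4. With it Gfap passed for Tβ10 against control (adjusted p = 0.0288), and F3, Mt2 and Hepacam no longer passed between peptides.

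Leaving out 1 library gave 1 to 4, 0 to 3, 0 to 12, 0 to 10, 0 to 10 and 0 to 0 astrocyte genes in the order above, and 106 to 760, 28 to 315, 0 to 354, 104 to 1392, 87 to 1052 and 0 to 0 of all genes. Depth limits Gjb6, Itih3 and Chrdl1, whose values rest on few reads.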
